A study of Mus musculus with 6 samples.

Results

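The expression of 10 genes for antimicrobial and secreted effector proteins (Lyz1, Lyz2, Lcn2, Slpi, Wfdc17, Chil3, Retnla, Hp, Ltf and Slc11a1) was read in alveolar macrophages of Zcchc6-/- and Zcchc6+/+ mice. The genes were listed by name, chosen with values of this same comparison already known, so their differences between genotypes are described here without a test. A value was matched for 9 of the 10 genes, out of 25206 genes on the array table; Lyz2 was not analysed here. Zcchc6 is a terminal uridyltransferase, an enzyme that adds uridines to the ends of RNA, and the comparison asked whether its loss altered the transcriptome of resident macrophages in the absence of infection.

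Macrophages and the lining of the airways defend the lung with secreted proteins that damage, starve or bind microbes, and with membrane transporters that act in the phagosome. Lysozyme cleaves bacterial cell walls, lipocalin 2 captures iron-loaded siderophores, lactoferrin binds free iron and haptoglobin binds free haemoglobin. The transporter encoded by Slc11a1 moves divalent metals out of the phagosome, where engulfed bacteria are held. Slpi and the related Wfdc17 are small whey acidic protein (WAP) domain proteins, the first a known inhibitor of neutrophil elastase, while Chil3 (Ym1) and Retnla (Fizz1) are secreted by mouse macrophages after stimulation by IL-4 or IL-13.

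The Zcchc6-/- mice lacked exons 16 and 17 of Zcchc6 after germline excision by EIIa-cre, a broadly active transgene that was then bred out. The EIIa-cre mice were of a B6.FVB line, and the strain of the mice they were bred with is not stated. The Zcchc6+/+ mice carried the intact gene. Mice were unchallenged, of both sexes and 8 to 16 weeks old, and the labels give no sex for a sample. Cells were collected by 10 lavages of 1 ml, and no sorting after the lavage is described. RNA of 3 samples per genotype was hybridized to Affymetrix Mouse Gene ST arrays; because the labels only number the replicates and do not state that each is a separate mouse, all p-values measure the spread between these samples.

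Values are log2 signals from the Robust Multiarray Average (RMA), on which a difference of 1 is a doubling, and the median over all genes was 4.40. Zcchc6 itself had log2 signals of 8.22, 7.69 and 8.13 in Zcchc6-/- replicates 1, 2 and 3, against 8.72, 8.77 and 8.65 in Zcchc6+/+ replicates 1, 2 and 3. All Zcchc6-/- arrays lay below all Zcchc6+/+ arrays, with a difference of -0.70 (SE 0.15, adjusted p = 0.774 from limma), and which exons the probes cover was not examined. Alveolar macrophage markers were high on every array, all 12 above the median gene, with a list mean of 10.23 to 10.42 in Zcchc6-/- and 10.47 to 10.51 in Zcchc6+/+ samples. Zcchc6-/- replicate 1 stood apart, with a T cell marker mean of 7.23, against 4.33 and 4.47 on the other Zcchc6-/- arrays and 4.15 to 4.79 on the Zcchc6+/+ arrays. Xist, the X-inactivation RNA of females, was at 10.32 and 10.73 on 2 Zcchc6-/- arrays and at 10.04 and 10.43 on 2 Zcchc6+/+ arrays, but at 3.27 in Zcchc6-/- replicate 2 and 3.78 in Zcchc6+/+ replicate 1, where the Y-linked Ddx3y was high (6.87 and 6.59). Each genotype therefore held 2 arrays with high Xist and 1 with low Xist. In these bulk samples fewer cells of a type and less RNA per cell cannot be told apart.

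Several of these genes lie in clusters of related copies. In the RefSeq gene order Lyz1 is the direct neighbour of Lyz2, Retnla lies between Retnlb and Retnlg, Chil3 between Chia1 and Chil4, and Wfdc17 next to Wfdc18 and Wfdc21. The stretch around both lysozyme start sites is shown because Lyz1 was measured without Lyz2, from 100 bases before to 50 bases after the start (RefSeq, GRCm38.p6, minus strand, Lyz1 at chr10:117292819-117292968 and Lyz2 at chr10:117282223-117282372). Capitals mark the bases at which the copies differ.
Lyz1: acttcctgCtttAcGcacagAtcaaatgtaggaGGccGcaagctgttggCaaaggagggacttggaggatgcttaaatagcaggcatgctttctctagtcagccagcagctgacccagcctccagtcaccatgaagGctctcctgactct
Lyz2: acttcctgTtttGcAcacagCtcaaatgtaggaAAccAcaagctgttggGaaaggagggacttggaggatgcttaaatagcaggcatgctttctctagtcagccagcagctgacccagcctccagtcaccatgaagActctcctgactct
Over these 150 bases 141 were identical and 9 differed (94% identity), and over the last 100 bases 99 were identical. Of the stretch shown, 100 bases lie before the start site, so it does not show how alike the transcripts are. How far the array probes separate the copies was not examined, so the Lyz1 signal is uncertain in this respect.

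The promoters of 4 genes are shown because they represent the kinds of pattern described below: Lcn2 was higher, Slpi lower, Chil3 level and Retnla varied from sample to sample. Each sequence runs from 250 bases before to 50 bases after the RefSeq start site (GRCm38.p6), with positions counted from 0 at the start. Capitals mark matches, on either strand, to the letters GGGNNNNNCC (NF-kB type), TTCNNNNGAA (STAT6 type), TTCNNNGAA (STAT type) or TTGCNNAA (C/EBP type). The intervals are chr2:32387690-32387989 (minus strand) for Lcn2, chr2:164356458-164356757 (minus strand) for Slpi, chr3:106167515-106167814 (minus strand) for Chil3 and chr16:48842359-48842658 (plus strand) for Retnla.
Lcn2: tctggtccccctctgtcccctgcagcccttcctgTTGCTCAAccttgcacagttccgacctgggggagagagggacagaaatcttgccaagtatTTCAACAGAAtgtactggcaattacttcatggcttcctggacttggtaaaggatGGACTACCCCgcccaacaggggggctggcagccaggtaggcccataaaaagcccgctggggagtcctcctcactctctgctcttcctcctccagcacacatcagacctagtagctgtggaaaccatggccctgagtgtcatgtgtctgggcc
Slpi: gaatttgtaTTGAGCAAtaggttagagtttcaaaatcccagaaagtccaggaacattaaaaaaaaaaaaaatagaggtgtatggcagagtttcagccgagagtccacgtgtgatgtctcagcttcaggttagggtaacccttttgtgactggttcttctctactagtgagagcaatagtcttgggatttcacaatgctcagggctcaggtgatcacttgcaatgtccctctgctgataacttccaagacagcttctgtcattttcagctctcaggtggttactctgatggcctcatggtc
Chil3: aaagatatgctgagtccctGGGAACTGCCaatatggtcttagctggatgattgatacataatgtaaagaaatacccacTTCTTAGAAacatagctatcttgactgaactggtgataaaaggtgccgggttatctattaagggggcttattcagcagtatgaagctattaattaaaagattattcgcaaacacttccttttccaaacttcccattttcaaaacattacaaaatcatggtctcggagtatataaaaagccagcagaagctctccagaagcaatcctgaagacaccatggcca
Retnla: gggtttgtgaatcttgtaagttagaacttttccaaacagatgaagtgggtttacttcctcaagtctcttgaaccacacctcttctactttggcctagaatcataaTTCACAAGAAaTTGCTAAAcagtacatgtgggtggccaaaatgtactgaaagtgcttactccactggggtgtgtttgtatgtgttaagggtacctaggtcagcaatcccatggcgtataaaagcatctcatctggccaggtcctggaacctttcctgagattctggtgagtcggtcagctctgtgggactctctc
The Lcn2 window held a C/EBP-type match at -216 to -209, a STAT6-type match at -156 to -147 and an NF-kB-type match at -102 to -93. In Slpi only the C/EBP-type letters were found, at -241 to -234. In Chil3 an NF-kB-type match stood at -231 to -222 and a STAT-type match at -172 to -164. In Retnla the STAT6-type match at -145 to -136 was followed, after a single base, by a C/EBP-type match at -134 to -127. A promoter entry was matched for 9 of the 10 genes, Lyz2 included and Hp not. C/EBP-type letters were found in 5 of these 9 promoters (Lcn2, Ltf, Lyz1, Retnla and Slpi) and in 10.8% of all 32851 promoters of this length. STAT6-type letters were found in 2 of 9 and in 6.95% of all, STAT-type letters in 1 of 9 and 8.3% of all, and NF-kB-type letters in 3 of 9 and 50.8% of all. These matches are descriptions of the letters and not binding sites.

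Among the iron-binding and haem-binding effectors, Lcn2 and Hp were higher in every Zcchc6-/- sample than in any Zcchc6+/+ sample, by 1.62-fold and 1.43-fold. Ltf was higher on average but by the signal of a single sample, and Slc11a1 varied more within Zcchc6+/+ than between genotypes. Of the WAP-domain genes, Slpi was lower in every Zcchc6-/- sample, at 68.6% of the Zcchc6+/+ signal, and Wfdc17 was lower on average (67.8%) with a slight overlap. Chil3, Lyz1 and Retnla overlapped between genotypes. Across all genes limma called 0 at an adjusted p of 0.05 (0%), with 1268 at an unadjusted p under 0.05, and 0 of the 9 effector genes were called. Separation of all arrays in the higher direction, seen in 2 of the 9, occurred in 1269 of 25206 genes (5.03%), and in the lower direction, seen in 1 of the 9, in 1298 genes (5.15%). Because the genes were chosen by values of this contrast, nothing is read from these shares. The median difference of the 9 genes was 0.20, with 6 higher and 3 lower, against -0.0063 over all genes, with 12157 higher and 13049 lower.

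**Figure D1:**
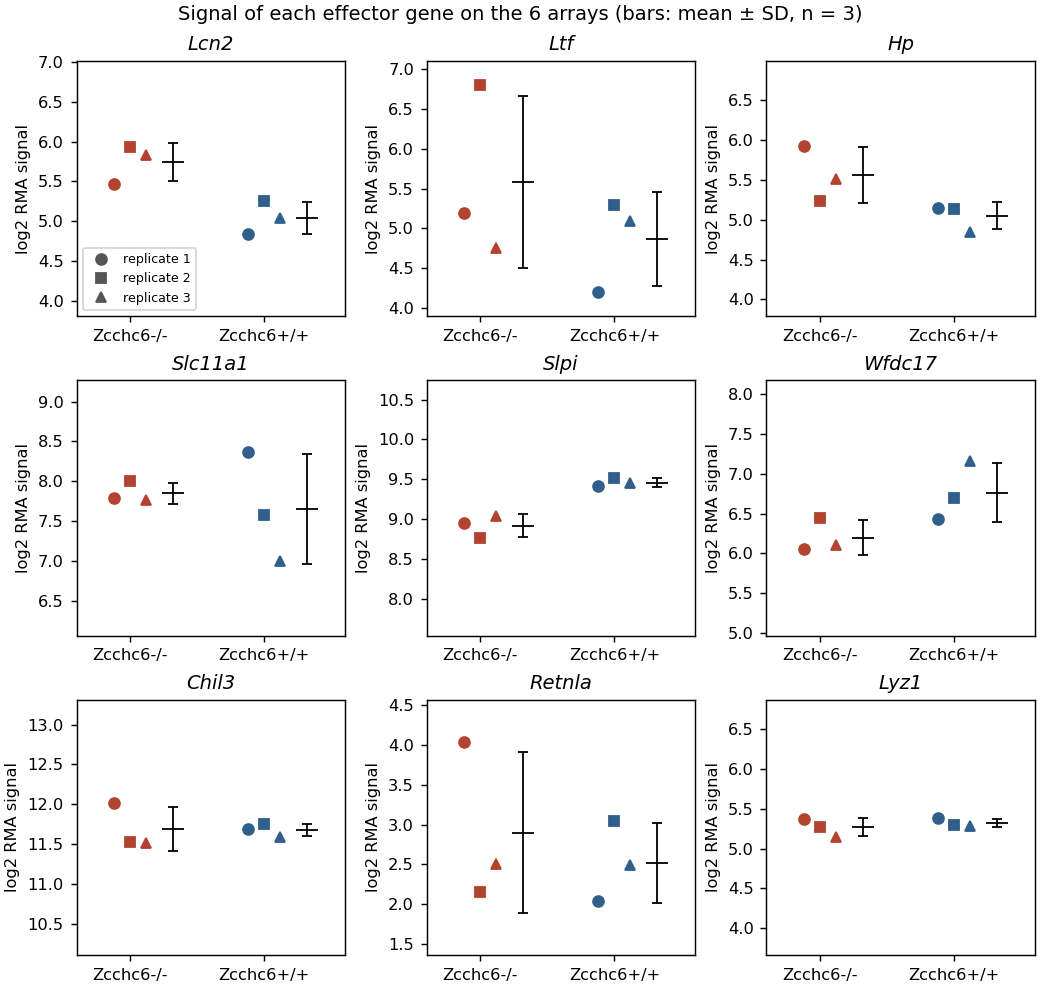
Log2 RMA signal (vertical axis, with its own range in each panel) of the 9 matched genes on the Zcchc6-/- arrays (left, red) and the Zcchc6+/+ arrays (right, blue); marker shapes give the replicate number and black bars the mean ± SD (n = 3). Lcn2 and Hp lie higher and Slpi lower on all 3 Zcchc6-/- arrays, whereas single arrays stand apart for Ltf (Zcchc6-/- replicate 2) and Retnla (Zcchc6-/- replicate 1).

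Lipocalin 2 withholds iron from bacteria by binding the siderophores with which they scavenge it. Lcn2 signals were 5.47, 5.93 and 5.83 in Zcchc6-/- replicates 1, 2 and 3, against 4.84, 5.25 and 5.04 in Zcchc6+/+ replicates 1, 2 and 3. The lowest Zcchc6-/- sample exceeded the highest Zcchc6+/+ sample by 0.22. The means in Zcchc6-/- and Zcchc6+/+ samples were 5.74 ± 0.24 and 5.04 ± 0.20 (SD, n = 3 each), a difference of 0.70 (SE 0.16). The difference was between 0.60 and 0.84 with any single array left out, 0.50 among the arrays with high Xist and 1.09 between the arrays with low Xist. Slc22a17, a receptor reported to take up lipocalin 2, went the other way, with signals of 6.72, 6.68 and 6.86 in Zcchc6-/- and 6.99, 7.15 and 7.06 in Zcchc6+/+ samples. Its groups did not overlap, but its difference of -0.31 did not pass the test (SE 0.10, adjusted p = 0.934 from limma).

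Haptoglobin binds haemoglobin released from red cells and so keeps its iron from microbes. Hp signals were 5.93, 5.24 and 5.51 in Zcchc6-/- replicates 1, 2 and 3, against 5.15, 5.14 and 4.85 in Zcchc6+/+ replicates 1, 2 and 3. The groups were separated by only 0.091, and Zcchc6-/- replicate 1 was the highest array. The means in Zcchc6-/- and Zcchc6+/+ samples were 5.56 ± 0.35 and 5.05 ± 0.17 (SD, n = 3 each), a difference of 0.51 (SE 0.19) that became 0.33 without Zcchc6-/- replicate 1. It was 0.72 among the arrays with high Xist and 0.091 between those with low Xist. Cd163, the macrophage receptor for the haptoglobin-haemoglobin complex, had signals well below the median gene in both genotypes (2.58 ± 0.15 in Zcchc6-/- and 2.65 ± 0.091 in Zcchc6+/+, SD, n = 3 each). Hpx, which binds free haem, was at 3.96 ± 0.43 in Zcchc6-/- and 3.90 ± 0.091 in Zcchc6+/+ samples.

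Lactoferrin is an iron-binding protein of neutrophil granules and of mucosal secretions. Ltf signals were 5.19, 6.80 and 4.76 in Zcchc6-/- replicates 1, 2 and 3, against 4.20, 5.30 and 5.10 in Zcchc6+/+ replicates 1, 2 and 3. Zcchc6-/- replicate 2 was the highest and Zcchc6+/+ replicate 1 the lowest, and the other 4 arrays overlapped. The means in Zcchc6-/- and Zcchc6+/+ samples were 5.58 ± 1.08 and 4.87 ± 0.59 (SD, n = 3 each), and the difference of 0.72 (SE 0.53) was 0.11 without Zcchc6-/- replicate 2. It was -0.23 among the arrays with high Xist and 2.61 between the arrays with low Xist, 1 of each genotype. The genes whose profile over the 6 arrays was most like that of Ltf were Muc5b, an airway mucin, and Cfap65 and Cfap44, proteins of motile cilia, with root mean square differences of 0.22, 0.23 and 0.30 (log2) after centring. Muc5b had 5.71, 6.79 and 4.94 in Zcchc6-/- and 4.32, 5.93 and 5.43 in Zcchc6+/+ samples, so its highest and lowest arrays were those of Ltf. None of the 12078 genes searched came within 0.2 of the Ltf profile.

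Slc11a1 (Nramp1) is known to pump manganese and iron out of the phagosome, although its activity in these mice was not measured. Its signals were 7.79, 8.0 and 7.76 in Zcchc6-/- replicates 1, 2 and 3, against 8.37, 7.58 and 7.0 in Zcchc6+/+ replicates 1, 2 and 3. The Zcchc6-/- arrays spanned 0.24 and lay inside the span of the Zcchc6+/+ arrays, which was 1.38. The difference of 0.20 (SE 0.31) turned to -0.13 without Zcchc6+/+ replicate 3 and was 0.56 without Zcchc6+/+ replicate 1. Clec4d, a C-type lectin receptor of myeloid cells, Hmox1, which degrades haem, and Slfn8 followed it most closely, with root mean square differences of 0.11, 0.12 and 0.14. Hmox1 signals were 10.16, 10.28 and 10.11 in Zcchc6-/- and 10.72, 10.21 and 9.53 in Zcchc6+/+ samples, with the same order among the Zcchc6+/+ arrays. The related transporter Slc11a2 (DMT1) was at 6.18 ± 0.25 in Zcchc6-/- and 6.20 ± 0.15 in Zcchc6+/+ samples, and the iron exporter Slc40a1 (ferroportin) at 5.66 ± 0.34 in Zcchc6-/- and 5.59 ± 0.23 in Zcchc6+/+ samples (SD, n = 3 each).

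Slpi inhibits neutrophil elastase and has antimicrobial activity of its own. Its signals were 8.95, 8.76 and 9.04 in Zcchc6-/- replicates 1, 2 and 3, against 9.41, 9.52 and 9.45 in Zcchc6+/+ replicates 1, 2 and 3. The highest Zcchc6-/- sample was 0.37 below the lowest Zcchc6+/+ sample. The means in Zcchc6-/- and Zcchc6+/+ samples were 8.92 ± 0.14 and 9.46 ± 0.059 (SD, n = 3 each), a difference of -0.54 (SE 0.11). The difference was between -0.60 and -0.47 with any single array left out, -0.50 among the arrays with high Xist and -0.64 between those with low Xist. The alveolar macrophage marker list was also lower on all Zcchc6-/- arrays, with 10 of 12 means lower and differences from -1.17 (Fabp4, a fatty acid carrier) to 0.43 (Marco, a scavenger receptor), and its part in the Slpi values was not tested. Elane and Ctsg, the neutrophil proteases that Slpi inhibits, were below the median gene on every array, with Elane at 3.82 ± 0.031 in Zcchc6-/- and 3.82 ± 0.11 in Zcchc6+/+ samples and Ctsg at 2.77 ± 0.10 in Zcchc6-/- and 2.64 ± 0.15 in Zcchc6+/+ samples (SD, n = 3 each).

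Wfdc17 encodes a WAP-domain protein of activated macrophages in the mouse. Its signals were 6.06, 6.45 and 6.10 in Zcchc6-/- replicates 1, 2 and 3, against 6.43, 6.69 and 7.16 in Zcchc6+/+ replicates 1, 2 and 3. The highest Zcchc6-/- and the lowest Zcchc6+/+ array overlapped by 0.016, and both were the arrays with low Xist. The means in Zcchc6-/- and Zcchc6+/+ samples were 6.20 ± 0.22 and 6.76 ± 0.37 (SD, n = 3 each), and the difference of -0.56 (SE 0.20) was -0.36 without Zcchc6+/+ replicate 3. Among the arrays with high Xist it was -0.85, and between the arrays with low Xist 0.016. The closest profiles were those of Ms4a6c, a membrane protein of myeloid cells, Slc25a35 and Krt79, with root mean square differences of 0.06, 0.12 and 0.13. Krt79 belongs to the alveolar macrophage marker list, and had 9.94, 10.39 and 9.98 in Zcchc6-/- and 10.45, 10.48 and 10.78 in Zcchc6+/+ samples.

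Chil3 and Retnla are both induced by IL-4 and IL-13 in mouse macrophages, but their profiles over the arrays differed. Chil3 signals were 12.01, 11.53 and 11.52 in Zcchc6-/- replicates 1, 2 and 3, against 11.69, 11.75 and 11.59 in Zcchc6+/+ replicates 1, 2 and 3. The signals were among the highest of all genes (99.9th percentile), and the difference was 0.0097 (SE 0.15). Its sign depended on single arrays, with -0.15 without Zcchc6-/- replicate 1, -0.033 without Zcchc6+/+ replicate 3 and -0.087 when limma weighted the arrays by their quality. Retnla signals were 4.04, 2.15 and 2.51 in Zcchc6-/- replicates 1, 2 and 3, against 2.04, 3.04 and 2.49 in Zcchc6+/+ replicates 1, 2 and 3, all below the median gene. Only Zcchc6-/- replicate 1 was high, and the difference of 0.38 (SE 0.48) was -0.19 without it. Zcchc6-/- replicate 1 was the highest array for both Chil3 and Retnla. The Retnla profile was most like those of Scgb1a1, the main secretory protein of club cells, and of Traj52 and Ighj4, joining segments of T cell receptor and immunoglobulin genes, with root mean square differences of 0.18, 0.24 and 0.25. Scgb1a1 had 11.22, 9.18 and 9.59 in Zcchc6-/- and 9.31, 10.56 and 9.52 in Zcchc6+/+ samples, and was the only one of 12079 genes within 0.2 of the Retnla profile. For the receptor chain Il4ra the means were 8.67 ± 0.14 in Zcchc6-/- and 8.63 ± 0.064 in Zcchc6+/+ samples, and for its transcription factor Stat6 9.29 ± 0.11 in Zcchc6-/- and 9.37 ± 0.021 in Zcchc6+/+ samples (SD, n = 3 each).

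Lyz1, one of a pair of mouse lysozyme genes and best known from Paneth cells of the intestine, was the most even of the group. Its signals were 5.37, 5.27 and 5.15 in Zcchc6-/- replicates 1, 2 and 3, against 5.38, 5.30 and 5.28 in Zcchc6+/+ replicates 1, 2 and 3. All 6 arrays lay within 0.23, the groups overlapped, and the difference was -0.056 (SE 0.10). Without Zcchc6-/- replicate 3 it was 0.00031.

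**Figure D2:**
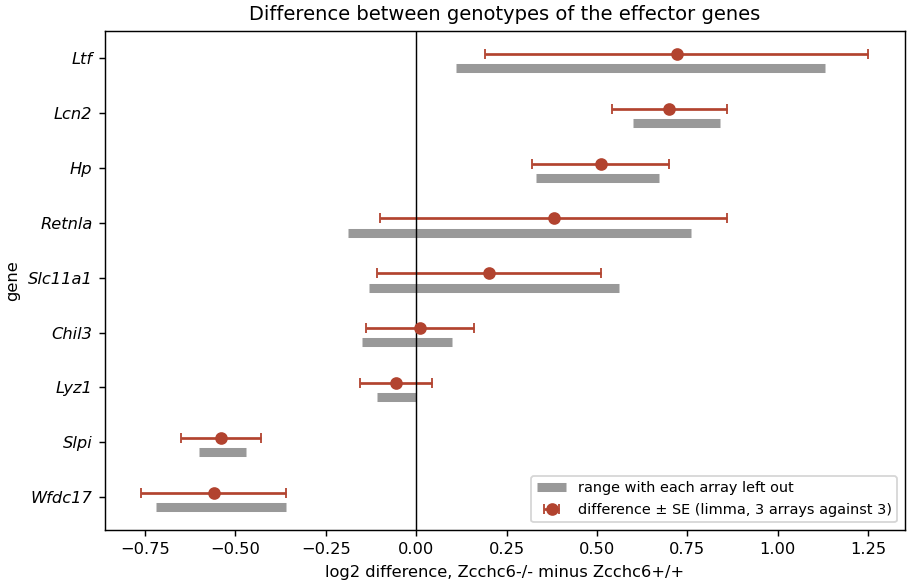
Log2 difference of each gene (horizontal axis, Zcchc6-/- minus Zcchc6+/+) with its SE from limma over 3 arrays against 3 (red), and below it in grey the range when each array was left out in turn. The ranges of Lcn2 (0.60 to 0.84), Hp (0.33 to 0.67), Slpi (-0.60 to -0.47) and Wfdc17 (-0.72 to -0.36) lie on one side of 0. So does that of Ltf (0.11 to 1.13), whose lowest value is without Zcchc6-/- replicate 2. For Lcn2, Hp and Slpi this was fixed beforehand, as their groups did not overlap. The ranges of Retnla (-0.19 to 0.76), Slc11a1 (-0.13 to 0.56), Chil3 (-0.15 to 0.10) and Lyz1 (-0.11 to 0.00031) span 0.

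Profiles like those of Lcn2 and Hp were searched in the same way. Mtus1, a microtubule-associated protein, BC055324 and Ccna2 (cyclin A2, which drives DNA replication and entry into mitosis) were closest to Lcn2, with root mean square differences of 0.11, 0.11 and 0.12, and 31 of 12078 genes came within 0.2. Ccna2 had 7.89, 8.13 and 8.32 in Zcchc6-/- and 7.33, 7.66 and 7.65 in Zcchc6+/+ samples. Cep128, a centriolar protein, Spata13, a guanine nucleotide exchange factor, and the noncoding RNA Lockd were closest to Hp (0.04, 0.076 and 0.077), with 189 genes within 0.2, beside 73 for Wfdc17 and 7 for Slc11a1. Over only 6 arrays such likeness is a description of the values.

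Lcn2, Ltf and Hp are also genes of maturing neutrophils, so neutrophil markers were read on the same arrays. The mean of 14 neutrophil markers was 4.08, 4.17 and 4.28 in Zcchc6-/- and 4.13 to 4.15 in Zcchc6+/+ samples, with 7 of 14 higher and 4 of 14 above the median gene. The defining granule and surface genes Ly6g, Camp, Ngp, S100a8 and S100a9 all averaged below the median gene in both genotypes. Ly6g was at 2.00 to 2.63 in Zcchc6-/- and 2.09 to 2.35 in Zcchc6+/+ samples, and Camp at 2.57 to 2.92 in Zcchc6-/- and 2.49 to 3.02 in Zcchc6+/+ samples. The 4 markers above the median gene, Cxcr2, Csf3r, Mmp8 and Trem1, differed in direction, and none passed the test. Cxcr2 signals were 6.05, 7.49 and 7.01 in Zcchc6-/- against 5.94, 5.68 and 5.67 in Zcchc6+/+ samples, a difference of 1.09 (SE 0.33, adjusted p = 0.902 from limma). Csf3r signals were 7.37, 8.19 and 7.99 in Zcchc6-/- against 7.30, 7.39 and 6.99 in Zcchc6+/+ samples, a difference of 0.63 (SE 0.22, adjusted p = 0.968). Mmp8, a collagenase, was lower in mean, with 7.27, 7.51 and 7.53 in Zcchc6-/- against 7.51, 8.12 and 8.57 in Zcchc6+/+ samples (difference -0.63, SE 0.25, adjusted p = 0.981), and Trem1, a receptor that amplifies inflammatory signalling, had a difference of -0.20 (SE 0.21, adjusted p = 0.998). Within Zcchc6-/-, Cxcr2 and Csf3r were lowest in replicate 1 and highest in replicate 2, as was Lcn2. Within Zcchc6+/+, Cxcr2 was highest in replicate 1, where Lcn2 was lowest. Csf3r was there highest in replicate 2, as was Lcn2, and lowest in replicate 3. The part of neutrophils in the Lcn2 values was not tested.

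Airway epithelial markers varied between arrays. Their list mean was 6.95, 6.64 and 5.88 in Zcchc6-/- replicates 1, 2 and 3, against 5.39, 6.42 and 6.0 in Zcchc6+/+ replicates 1, 2 and 3, with 8 of 9 markers higher in mean and 7 of 9 above the median gene. As for Ltf, the lowest array was Zcchc6+/+ replicate 1. Slpi is likewise a product of airway epithelium, and its lowest array, Zcchc6-/- replicate 2, had an epithelial mean of 6.64. Within Zcchc6-/- Slpi was highest in replicate 3, where the epithelial mean was lowest. Within Zcchc6+/+ both Slpi and the epithelial mean were lowest in replicate 1 and highest in replicate 2. The T cell list was higher in mean for 17 of 17 markers, and its list mean was high on Zcchc6-/- replicate 1 alone. Tcf7 was at 9.68 there, against 4.59 and 4.76 in the other Zcchc6-/- and 4.34 to 5.56 in Zcchc6+/+ samples. Not every marker followed this array, since Cd2 was at 8.55, 8.69 and 8.51 in Zcchc6-/- and 8.58, 8.47 and 8.59 in Zcchc6+/+ samples. Il7r was highest on Zcchc6-/- replicate 1, but all its Zcchc6-/- signals (5.32, 4.60 and 4.46) exceeded those of Zcchc6+/+ samples (4.08, 4.18 and 3.86). B cell markers had 4.31, 3.53 and 3.68 in Zcchc6-/- and 3.54, 3.88 and 3.58 in Zcchc6+/+ samples, with Ighm at 7.81 in Zcchc6-/- replicate 1. Hp, Chil3 and Retnla were also highest on that array, and without it their differences were 0.33, -0.15 and -0.19. The part of these cells in the values of the effector genes was not tested.

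**Figure D3:**
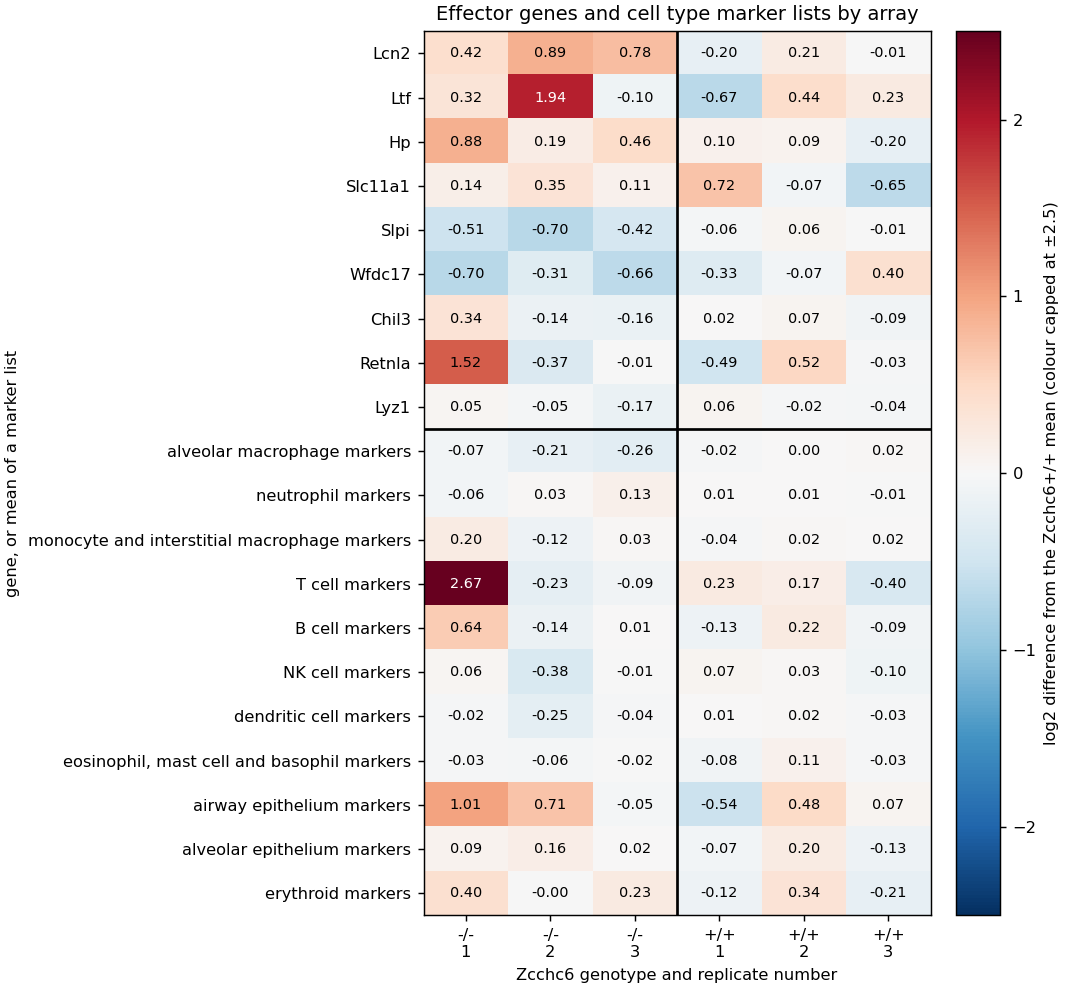
Log2 signal of the 9 genes (upper rows) and mean signal of 11 cell type marker lists (lower rows) on each array, as the difference from the Zcchc6+/+ mean, with Zcchc6-/- arrays on the left and colour capped at ±2.5. Zcchc6-/- replicate 1 shows high T cell markers (2.67) with high Retnla (1.52) and Hp (0.88), and Ltf is highest on Zcchc6-/- replicate 2 (1.94, with airway epithelium markers at 0.71), while the airway epithelium markers are highest on Zcchc6-/- replicate 1 (1.01, with Ltf at 0.32).

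The wider pathways of these proteins were read from 5 lists of 111 genes in all, each measured. No gene of any list was called by limma in either direction, and the list medians were all within 0.056 of 0, beside -0.0063 for all genes. The 24 paralogs of the effector genes had a median of -0.055 (10 higher, 14 lower in mean), but only 7 of them were above the median gene in level. Wfdc21, a neighbour of Wfdc17, had signals of 8.43, 7.99 and 7.93 in Zcchc6-/- against 8.44, 8.44 and 8.56 in Zcchc6+/+ samples (difference -0.37, SE 0.15, adjusted p = 0.983). Its highest Zcchc6-/- array all but met the Zcchc6+/+ range. Of the 24 paralogs, 4 were lower with no overlap and 0 higher, beside 5.15% and 5.03% of all genes. Retnlb and Retnlg, the neighbours of Retnla, had differences of -0.37 and -0.28, and Chit1, a chitinase, -0.33, all at adjusted p = 0.997 and all below the median gene. Chil4 (Ym2), next to Chil3, was at 3.34 ± 0.48 in Zcchc6-/- and 3.43 ± 0.15 in Zcchc6+/+ samples (SD, n = 3 each).

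The 27 other antimicrobial effectors had a median of -0.0023 (12 higher, 15 lower), with 14 of them above the median gene in level. Ncf1 and Cyba, subunits of the phagocyte NADPH oxidase, had differences of -0.30 (SE 0.13, adjusted p = 0.984) and -0.21 (SE 0.10, adjusted p = 0.997) with no overlap between genotypes. Among the 27 genes, 4 were lower with no overlap and 0 higher, beside 5.15% and 5.03% of all genes. Bpifa1, a secreted protein of airway epithelium, had the largest mean difference of the list, 1.11 (SE 0.52, adjusted p = 0.997), with 7.85, 8.79 and 6.74 in Zcchc6-/- and 6.01, 6.78 and 7.26 in Zcchc6+/+ samples. Its groups overlapped, and as for Ltf the highest array was Zcchc6-/- replicate 2 and the lowest Zcchc6+/+ replicate 1. The difference was 0.62 without Zcchc6-/- replicate 2, 0.28 among the arrays with high Xist and 2.79 between those with low Xist. Nos2, the inducible nitric oxide synthase, had a difference of 0.24 (SE 0.12, adjusted p = 0.997). Mpeg1, a pore-forming protein of macrophages, was at 11.04 ± 0.10 in Zcchc6-/- and 11.16 ± 0.019 in Zcchc6+/+ samples (SD, n = 3 each), also with no overlap.

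Iron and haem handling (19 genes, 12 above the median gene in level) had a median of -0.01, with 7 higher and 12 lower. Tfrc, the transferrin receptor, had 6.05, 6.55 and 6.42 in Zcchc6-/- against 6.24, 5.52 and 5.17 in Zcchc6+/+ samples. The groups overlapped through Zcchc6+/+ replicate 1, and the difference of 0.70 (SE 0.27) did not pass (adjusted p = 0.981). Slc22a17, described above, was the only one of the 19 without overlap, beside 5.15% of all genes in its lower direction. Ftl1, a ferritin light chain gene, and Bdh2, an enzyme implicated in making the mammalian siderophore that lipocalin 2 binds, did not pass (both at adjusted p = 0.997). Both were below the median gene, and Ftl1 was near the array's floor, at 1.52 to 2.34 in Zcchc6-/- and 2.05 to 2.80 in Zcchc6+/+ samples. The ferritin gene Fth1 had means of 12.21 in Zcchc6-/- and 12.23 in Zcchc6+/+ samples. How well the probes measure Ftl1 was not examined, so its low signal is not read as low expression.

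In the type 2 activation list, 11 of 23 genes were higher and 12 lower in mean, with a median of -0.0022. The level of 17 of them was above the median gene. Tgm2, a transglutaminase, and Egr2, a transcription factor, did not overlap between genotypes and had differences of -0.24 (SE 0.10, adjusted p = 0.983) and -0.25 (SE 0.11, adjusted p = 0.997). They were the 2 of 23 genes lower with no overlap, and 0 were higher, beside 5.15% and 5.03% of all genes. The transcription factor Klf4 (-0.20) and the checkpoint ligand Pdcd1lg2 (0.21) overlapped, both at adjusted p = 0.997.

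The acute phase induction list had a median of -0.056 over 18 genes (7 higher, 11 lower), with 9 of them above the median gene in level. It holds genes of the signalling by IL-1, IL-6 and IL-17, which raises Lcn2, Hp and Slpi in other settings. It also holds acute phase products (Saa1, Saa2, Saa3, Orm1, Orm2, Crp and Apcs), which all averaged below the median gene. Il1r1, the signalling receptor for IL-1, had 4.64, 4.95 and 5.01 in Zcchc6-/- against 4.29, 4.24 and 4.17 in Zcchc6+/+ samples. All Zcchc6-/- arrays were higher, by 0.63 (SE 0.13), and the adjusted p was 0.716, the smallest of the 5 lists. Nfkbiz, the coactivator needed for Lcn2 induction, was at 5.37 ± 0.078 in Zcchc6-/- and 5.24 ± 0.065 in Zcchc6+/+ samples (SD, n = 3 each). Its Zcchc6-/- arrays were also all higher, but the nearest arrays were at 5.29 and 5.28. The Nfkbiz difference of 0.13 did not pass the test (SE 0.10, adjusted p = 0.997 from limma). Il1r1 and Nfkbiz were the 2 of 18 genes higher with no overlap, and 0 were lower, beside 5.03% and 5.15% of all genes. Il6st, the shared chain of IL-6 family receptors, Saa3, a serum amyloid A, and Apcs, a pentraxin, had differences of -0.18, -0.27 and -0.16, all at adjusted p = 0.997.

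**Figure D4:**
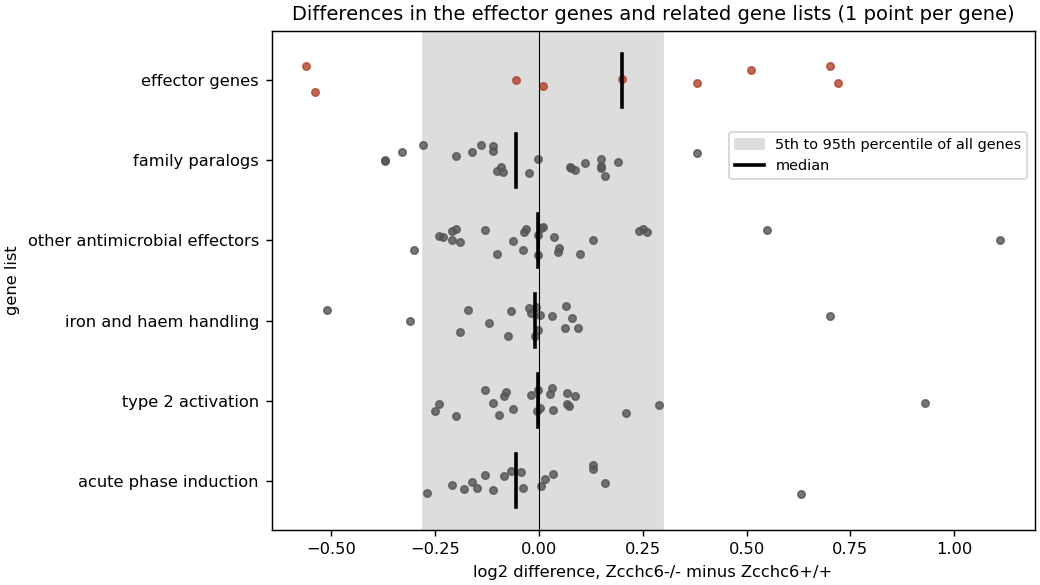
Log2 difference (horizontal axis, Zcchc6-/- minus Zcchc6+/+) of each effector gene (red) and of each gene in 5 related lists (grey), with black bars for medians and a shaded band from the 5th to the 95th percentile of all genes (-0.28 to 0.30). The effector genes, chosen with this contrast known, have a median of 0.20, and the other lists have medians between -0.056 and -0.0022.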

How the data were processed

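Alveolar macrophages recovered by lavage were profiled on Affymetrix Mouse Gene ST arrays, 3 per genotype. The authors deposited log2 values, 1 for each Entrez Gene probe set on each array, which their processing notes credit to RMA (affy 1.36.1, R 2.15.1). Background correction, quantile normalization and probe summary are part of RMA, so the table gives no probe detail, detection call or depth, the number of arrays limits the precision, and small changes near the floor are understated. The genome build of the probe mapping was not given in the sources used here. Symbols came from the platform annotation and a RefSeq table (GRCm38.p6), which named 23740 of the 25206 genes.

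Genotypes were compared for every gene with lmFit and eBayes of limma 3.58.1 (R 4.3.3), without covariate or filter, Zcchc6-/- minus Zcchc6+/+, with Benjamini-Hochberg adjustment over 25206 genes and a threshold of 0.05. With 3 arrays against 3, an exact permutation test of 1 gene could not go below p = 0.1. The effector genes and all lists were chosen with earlier results of these data known. Named genes are the effector genes, their direct partners, the 4 smallest p of each pathway list, the 3 brightest markers of marker lists that varied by over 0.5, and the 3 profiles most like each effector gene that spanned over 1, by root mean square difference of centred values among named genes above the median. Other markers and lists' extremes were named after their values were seen. Replicate numbers were not taken to pair samples, since the deviations of same-numbered arrays correlated at 0.090, -0.231 and 0.046. Alternatives were a filter at the median, trended, robust and unmoderated variances, array weights, a second quantile normalization, centred medians, a replicate block, Xist as a covariate and leaving out each array; a split by Xist was chosen after seeing the data. Before use, the fit was tested on simulated data. Promoter sequences are from RefSeq.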

Additional observations from a re-analysis of the deposited data

How the results depend on the processing

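No effector gene and no gene of the 5 pathway lists was called by limma under any setting run. Over all genes the count was 0 in every fit but 1: leaving out each array in turn gave 0 to 1 calls, the single call being Olfr43 (adjusted p = 0.0104) without Zcchc6-/- replicate 1. The replicate block gave 0 calls, with the same differences. Lcn2 and Hp stayed higher and Slpi lower. As their groups did not overlap, leaving out arrays or splitting by Xist could not have reversed them. Lyz1 stayed lower, bar the removal of Zcchc6-/- replicate 3 (0.00031). Array weighting changed the sign of Chil3 (-0.087) and of no other effector gene. Arrays with low Xist, 1 against 1 and without a test, gave 1.09 for Lcn2, 0.016 for Wfdc17, 0.091 for Hp, 2.61 for Ltf, -0.38 for Slc11a1 and -0.019 for Pdcd1lg2 (0.21 over all arrays); those with high Xist gave -0.23 for Ltf. The cause was not tested. For single genes, 494 further values kept their direction and side of the threshold, or moved by less than the spread between replicates. The median filter, the variance settings and the replicate block cannot change a difference, so those values of the effector genes could not have moved. Retnla lies near the array's floor, where signal limits what can be seen.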

Other observations

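Some genes of the lists were high on a single array, and are named here after their values were seen. Rnase2a, an eosinophil-type ribonuclease gene matched to the listed Ear11 by an older symbol, had 5.84, 2.37 and 2.51 in Zcchc6-/- replicates 1, 2 and 3, against 2.52, 2.67 and 2.74 in Zcchc6+/+ replicates 1, 2 and 3. Like Retnla and Chil3 it was highest in Zcchc6-/- replicate 1, and its difference of 0.93 (SE 0.84) did not pass (adjusted p = 0.997 from limma). Acod1, which makes the antimicrobial metabolite itaconate, had 4.51, 4.85 and 4.03 in Zcchc6-/- replicates 1, 2 and 3, against 5.54, 4.01 and 3.84 in Zcchc6+/+ replicates 1, 2 and 3. Its highest array was Zcchc6+/+ replicate 1, as for Slc11a1 and Hmox1, and its lowest was Zcchc6+/+ replicate 3, again as for both.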
